A study of Danio rerio with 3 samples.

Results

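The proteasome subunit genes of the zebrafish (Danio rerio) intestine were examined across 3 diets. They were taken by name as genes whose symbol starts with psma to psmg and a number, which gave 56 genes. The 9 immune subunits among them (psmb8a, psmb9a, psmb10, psmb11a, psmb11b, psmb12, psmb13a, psme1 and psme2) were set aside. This left 47 of the 32519 genes listed. Of these, 46 reached 1 FPKM (fragments assigned to a gene, scaled for transcript length and library size) in at least 1 library, and psme4a did not. By role they comprised 16 genes of the core particle, 20 of the regulatory particle, 3 assembly chaperones of each particle, and 4 genes of other activators and the inhibitor. The remaining gene, psmc3ip, matched by name only. It encodes a partner of PSMC3 that acts in meiotic recombination in mammals, so it was kept in counts of all members but not in the regulatory particle.

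The 26S proteasome is the protease that degrades proteins tagged with ubiquitin in the cytosol and nucleus of eukaryotic cells. Its core particle is a barrel of α rings, which gate the entrance, around β rings, which hold the protease sites. The regulatory particle (19S) caps the barrel, where its ATPases unfold the substrate and its other subunits bind and remove ubiquitin. In yeast and mammals the genes of both particles are transcribed under shared control, and in immune and inflamed cells some β subunits are replaced by immune versions.

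The fish were healthy adults of 6 to 9 months, kept with 14 hours of light and 10 of darkness. Each diet was sequenced as 1 library of poly(A) RNA from the intestine, in paired reads of 150 bases. Control fish (CO) ate the commercial feed Tetramin. Cavendish fish (CV) ate granules made up of 50% Tetramin and 50% pulp of the Cavendish banana, and Fe'i fish (FE) ate granules with the same share of Fe'i banana, a fruit with orange flesh. All feeds were given at 4% of body weight a day for 8 weeks, and fish were fasted for 24 hours before the intestine was taken at day 56. The sources used here state no strain, sex, number of fish per library or part of the intestine. With 1 library per diet no difference has a replicate check, and no p-value was computed.

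Values are FPKM divided by a scaling factor per library, and 3 values after a gene are for control, Cavendish and Fe'i in that order. The figure after ± is the scaled reach of the deposited 95% interval, which covers counting and read assignment only. Ratios are log2 differences of scaled FPKM + 1, with a counting SE. Differences were read with a 2-fold rule and, since no member reached it, with a 1.3-fold rule. Both also required 1 FPKM in the higher library and intervals that did not overlap. Measured members rested on 40.3 to 5022 effective fragments in a library, with medians of 962, 986 and 636, so the Fe'i values are the least precise.

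Markers of other tissues took unequal shares of the libraries. Exocrine pancreas markers took 5.91% of summed FPKM on control feed, 14.0% with Cavendish and 5.02% with Fe'i. Liver markers took 0.786%, 1.41% and 2.99%, and mitochondrially encoded genes 12.0%, 10.9% and 17.4%. All 13 intestine markers were detected in every library, among them villin (vil1) at 523 ± 21.9, 434 ± 18.1 and 425 ± 18.4 FPKM. In bulk tissue, fewer cells of a type and less RNA per cell cannot be told apart.

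Nearly all of the proteasome genes were lower with Fe'i than on control feed, by steps of unequal size. The log2 ratios ran from -0.64 (psma3) to 0.25 (psmg3). Of the 46 measured members 44 had a log2 ratio below 0, and the exceptions were psmd9 and psmg3. Of the 14061 measured genes 48.4% did, and of those at 20 FPKM or more in a library 55.4%. The median was -0.39, a difference of -23.8%, and the interquartile range ran from -0.48 to -0.28. Over all measured genes the median was 0.01, with an interquartile range from -0.22 to 0.29. Over those at 20 FPKM or more it was -0.05, with a range from -0.30 to 0.25. By the 1.3-fold rule 25 members were lower, against 9.64% of all measured genes and 18.1% of those at 20 FPKM or more in a library. None was higher, against 13.2% and 18%. None was past 2-fold in either direction, where 4.93% of genes were higher and 1.79% lower. Intervals lay apart in the lower direction for 35 members and in the higher for 0, against 14.5% and 16.3% of all measured genes and 31.9% and 25.5% of those at 20 FPKM or more.

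The ratios spread less than those of genes at 20 FPKM or more, but more than a counting SE. The SD of the Fe'i over control ratios was 0.17 over the 46 members, 0.15 over the core and 0.11 over the regulatory particle, while the median counting SE of a member was 0.07. Among all measured genes at 20 FPKM or more the SD was 0.79, a value that extreme genes raise, with ratios from -7.44 to 6.89. Their interquartile range of -0.30 to 0.25 is closer to the -0.48 to -0.28 of the members in width. The SD was 0.087 over 76 cytosolic ribosomal protein genes and 0.098 over 9 gene models of the chaperonin CCT. A narrow spread was thus not particular to the proteasome genes.

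With Cavendish the genes were lower than on control feed too, by a smaller step. Of the 46 members 40 had a ratio below 0, against 47.9% of all measured genes and 57.3% of those at 20 FPKM or more. The members' median was -0.17, with an interquartile range from -0.26 to -0.07. The median was 0.02 over all measured genes and -0.07 over those at 20 FPKM or more. By the 1.3-fold rule 3 members were lower and 1 was higher. That is a smaller share than among all measured genes (10.7% and 16.9%) or those at 20 FPKM or more (21.1% and 18.5%). For the lower calls, the smaller share relative to all measured genes held only under the scaling used here. Under the other scalings, given below, 14, 31 and 15 of 46 members were lower. Each is a larger share than that of all measured genes (16.8%, 25.7% and 17.8%). Shares of genes at 20 FPKM or more were not computed under those scalings, so no excess over them is shown. None was past 2-fold, where 5.66% of genes were higher and 1.65% lower. Intervals lay apart in the lower direction for 20 members and in the higher for 2, psma5 and psmg3, against 16.9% and 20.6% of all measured genes and 36.7% and 27.5% of those at 20 FPKM or more. The Cavendish and Fe'i ratios share the control library.

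Set against Cavendish, the Fe'i library was lower in 37 of 46 members, with a median of -0.21. It was lower in 51% of all measured genes and 47.4% of those at 20 FPKM or more, with medians of -0.01 and 0.02. The 1.3-fold rule placed 8 members lower and 0 higher, against 14.6% and 13.2% of all measured genes and 17.3% and 20.9% of those at 20 FPKM or more. The members' lower share of 17.4% is near that of genes at 20 FPKM or more, so this lower count is not a result about the members. With TPM it was 3, against 11.1% of all measured genes. None was past 2-fold, where 4.22% of genes were higher and 4.49% lower. Intervals lay apart in the lower direction for 23 members and in the higher for 0, against 18.2% and 17.5% of all measured genes and 27.8% and 31.3% of those at 20 FPKM or more. The control library was the highest of the 3 for 39 members, the Cavendish for 6 and the Fe'i for 1. The Fe'i library was the lowest for 36 members, the Cavendish for 9 and the control for 1. Neighbours in these orders often have overlapping intervals.

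**Figure D1:**
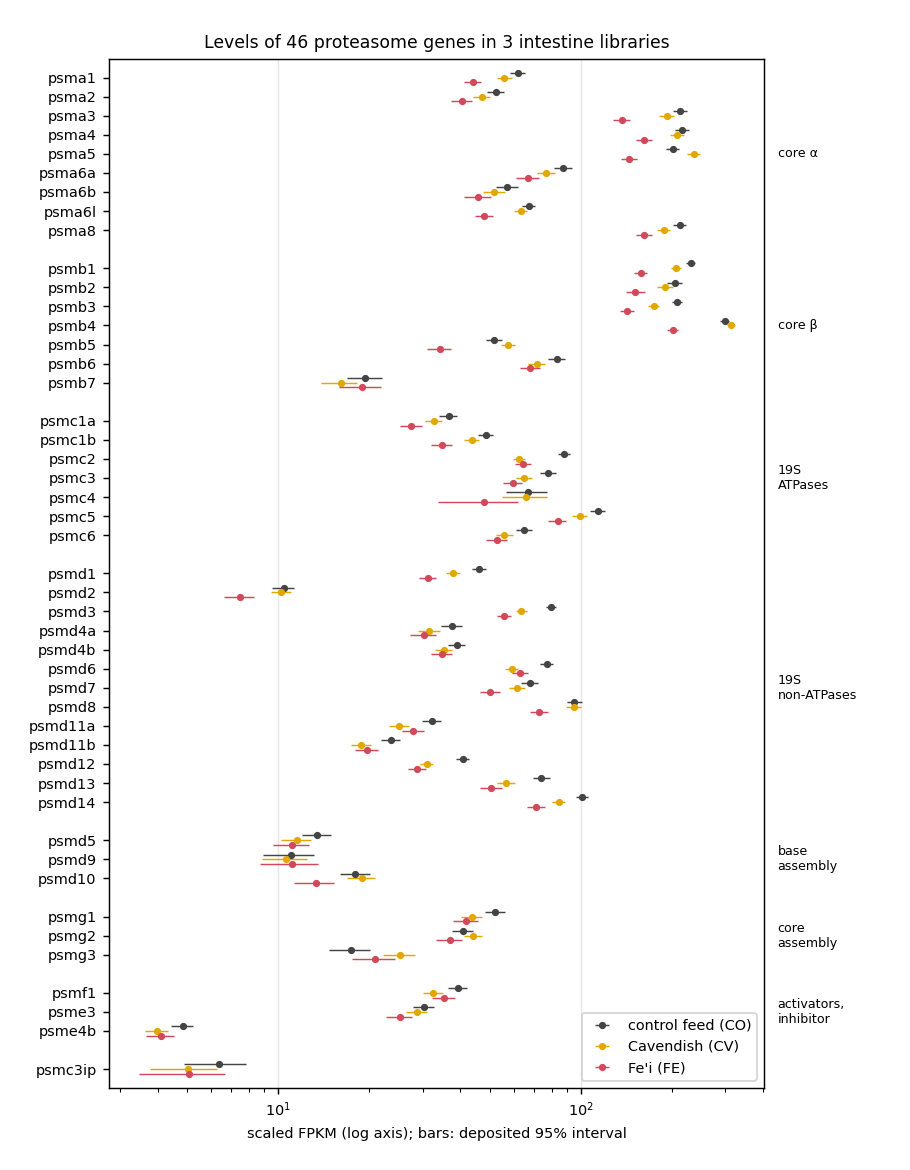
Scaled FPKM (log axis) of the 46 measured proteasome genes by diet, grouped by role; bars are the deposited 95% intervals, and psmc3ip stands alone at the bottom. The Fe'i point is the lowest for 36 genes, and core genes such as psmb4 (298 ± 9.27 FPKM on control feed) stand above most genes of the regulatory particle.

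The core and regulatory particles differed in level. FPKM is a value per length, so genes can be set side by side. The median core gene stood at 144, 125 and 102 FPKM, and the median gene of the regulatory particle at 66.0, 56.3 and 49.0. The core median was thus 2.19, 2.23 and 2.09 times the regulatory median in the 3 libraries. These medians count each listed gene on its own, although psma6, psmc1, psmd4 and psmd11 have paralogs and PSMD2 is left out. Summed on control feed, the psma6 genes stood at 212 FPKM and psmd2 with PSMD2 at 39.3. The ratio is therefore one of genes and not of subunits. Levels within a particle were far from equal. On control feed β ring genes ran from 19.4 FPKM for psmb7 to 298 for psmb4, a 15.4-fold range, while the ATPase genes spanned 3.12-fold.

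With Fe'i both particles were lower than on control feed by about the same amount. The median log2 ratio was -0.45 over the 16 core genes and -0.43 over the 20 regulatory genes, a difference of -0.03. All 36 genes had a ratio below 0, against 48.4% of all measured genes and 55.4% of those at 20 FPKM or more. By the 1.3-fold rule 12 in each particle were lower, against 9.64% and 18.1%. With Cavendish the regulatory particle stood lower than the core relative to control, at medians of -0.25 and -0.15. That difference of 0.10 is smaller than the SD among single genes of either particle, 0.14 for the core and 0.13 for the regulatory particle. Such an SD does not measure the spread of a difference between medians, and no test of the difference was possible. Intervals lay apart in the lower direction for 13 of 20 regulatory genes (65%) and 4 of 16 core genes (25%), on either side of the 36.7% among all genes at 20 FPKM or more. Between Fe'i and Cavendish the order was the other way round, with a core median of -0.33 and a regulatory median of -0.17, beside SDs of 0.24 and 0.17. This comparison uses the same libraries as the others and is not a separate observation.

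The α ring genes were lower together with Fe'i. All 9 had ratios between -0.64 and -0.32, and 7 were lower by the 1.3-fold rule, against 18.1% of genes at 20 FPKM or more. psma3 (ENSDARG00000086618, chromosome 17, 11421643 to 11439815 in GRCz11) had the lowest ratio of all members, at 213 ± 11.7, 192 ± 10.4 and 136 ± 9.12 FPKM. Its Fe'i interval lay below both others, and the log2 ratio to control was -0.64 with a counting SE of 0.06.

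psma5 differed from the rest of its ring, at 201 ± 10.2, 236 ± 11.2 and 145 ± 8.80 FPKM. The 3 intervals did not overlap, and psma5 was higher with Cavendish (log2 ratio 0.23, counting SE 0.05) and lower with Fe'i (-0.47, counting SE 0.06) than on control feed. Of these ratios, that with Fe'i passed the 1.3-fold rule, and that with Cavendish was 0.10 with deposited FPKM and -0.039 with TPM.

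psma8, for which the RefSeq gene table also lists the name psma7, was at 212 ± 11.0, 188 ± 9.55 and 162 ± 9.53 FPKM. In mammals PSMA8 is the form of germ cells. No member is listed as psma7, so the level here is not read as that of a germ cell form. The gene was among the 4 most abundant α genes of the control library, beside psma3, psma4 and psma5. Its 3 intervals were apart, in the order control, Cavendish, Fe'i.

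The 3 psma6 genes encode versions of the same α subunit and may share reads. psma6a was at 87.5 ± 6.25, 76.8 ± 5.47 and 66.7 ± 5.88 FPKM, psma6b at 57.2 ± 4.84, 51.7 ± 4.32 and 45.7 ± 4.79 and psma6l at 67.3 ± 3.41, 63.4 ± 3.08 and 48.0 ± 3.36. For each of them the Fe'i interval lay below the control, while control and Cavendish overlapped. Summed, they gave 212 ± 8.61, 192 ± 7.62 and 160.4 ± 8.29, with no overlap between any pair of intervals. The other α genes, psma1, psma2 and psma4, had Fe'i over control ratios of -0.48, -0.36 and -0.41.

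Among the β ring genes 5 of 7 were lower with Fe'i by the 1.3-fold rule, against 18.1% of genes at 20 FPKM or more. The 5 lay close together, from -0.59 to -0.43. psmb5 (ENSDARG00000075445, chromosome 2, 38373272 to 38392575), the subunit with chymotrypsin-like activity, was at 51.7 ± 3.18, 57.3 ± 3.11 and 34.1 ± 3.00 FPKM. The Fe'i interval lay below both others, while the control and Cavendish intervals overlapped. Its ratios were -0.59 for Fe'i over control (counting SE 0.08) and -0.73 for Fe'i over Cavendish, the lowest of any member in that comparison.

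psmb4, the most abundant member, was at 298 ± 9.27, 313 ± 8.84 and 201 ± 8.81 FPKM. psmb3 was at 208 ± 8.09, 174 ± 6.89 and 142 ± 7.83 and psmb1 at 230.3 ± 8.27, 206 ± 7.29 and 158 ± 7.95. The Fe'i library was lowest for all of these, and the Cavendish library overlapped the control for psmb4 but stood between the others for psmb3 and psmb1. psmb2 had a Fe'i over control ratio of -0.43. These subunits have no protease site of their own.

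The other catalytic subunits did not pass the rule. psmb6, with caspase-like activity, was at 83.3 ± 5.41, 71.5 ± 4.66 and 68.0 ± 5.23 FPKM, and the control interval lay above both banana intervals. psmb7, with trypsin-like activity, was at 19.4 ± 2.58, 16.1 ± 2.19 and 18.9 ± 3.01 FPKM, with all 3 intervals overlapping (Fe'i over control -0.03, counting SE 0.14). It was the lowest core gene in every library.

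**Figure D2:**
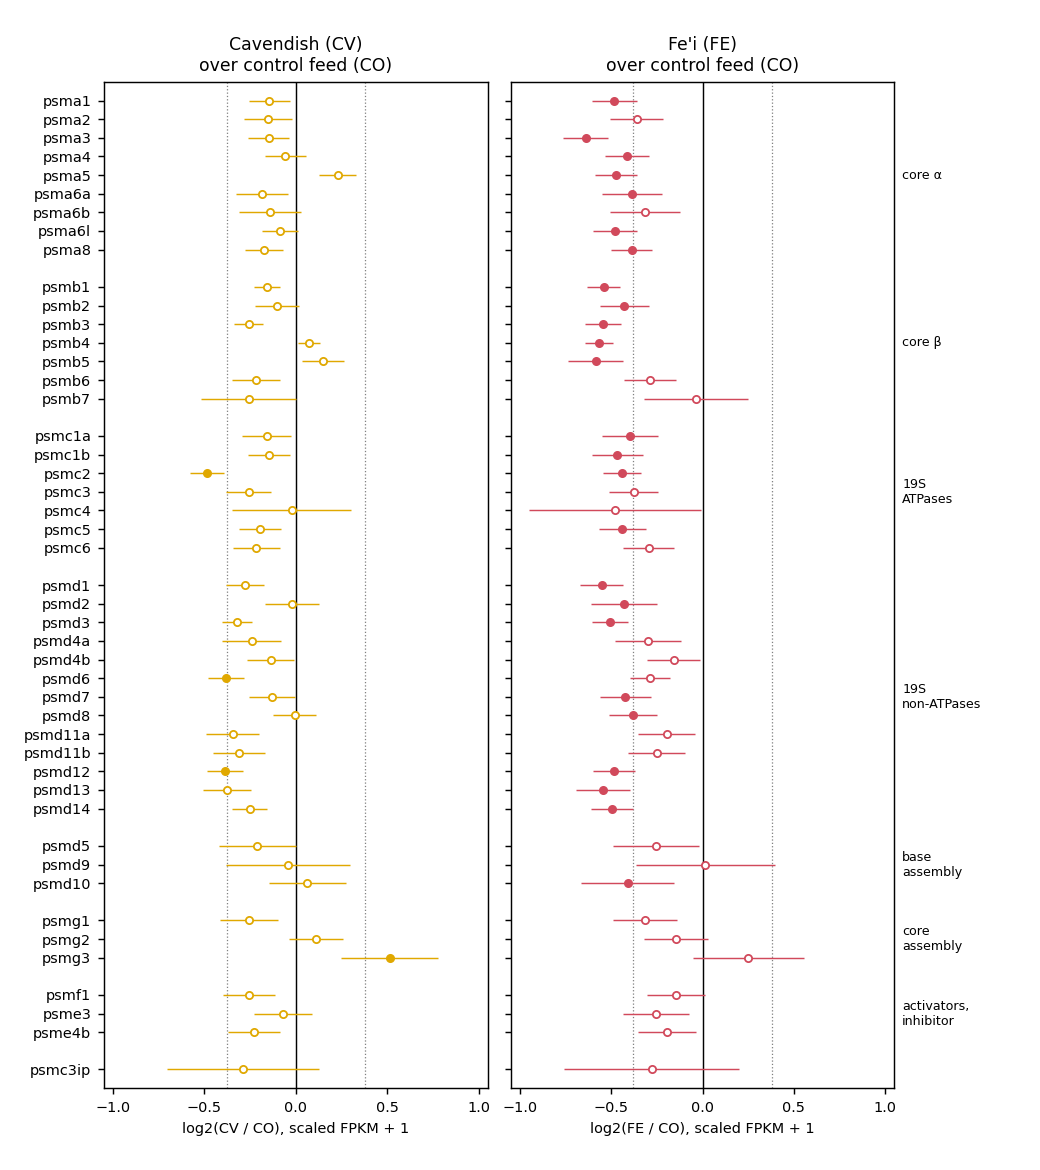
Log2 ratios of each measured proteasome gene for Cavendish over control (left) and Fe'i over control (right), from scaled FPKM + 1; bars are 2 counting SE, dotted lines mark 1.3-fold, and filled points passed the 1.3-fold rule. On the right 25 points are filled, all below 0. On the left 3 filled points lie below 0 (psmc2, psmd6, psmd12) and 1 above (psmg3); both panels share the control library.

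The ATPase genes, which form the ring that unfolds substrates, were the most even of the 4 subunit groups with Fe'i. All 7 had ratios between -0.48 and -0.30, and their SD of 0.06 was about the size of a counting SE (median 0.07). psmc2 (ENSDARG00000020101, chromosome 4, 14926948 to 14932359) was low on both banana feeds, at 88.1 ± 3.86, 62.5 ± 3.03 and 64.6 ± 3.86 FPKM. The banana intervals overlapped and lay below the control, and the Cavendish over control ratio of -0.49 (counting SE 0.05) was the lowest of any member there.

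psmc5 was at 114 ± 6.54, 99.3 ± 5.69 and 83.8 ± 5.73 FPKM, the highest of the ATPases in all 3 libraries, and its intervals did not overlap between any pair of diets. psmc4 was at 67.0 ± 10.5, 66.0 ± 11.1 and 47.8 ± 14.1, with wide intervals that overlapped in all pairs. psmc3 was at 77.7 ± 4.73, 64.8 ± 4.00 and 59.6 ± 4.28 and psmc6 at 65.0 ± 4.19, 55.8 ± 3.61 and 52.8 ± 4.02. Both had a control interval above the banana intervals but Fe'i ratios short of 1.3-fold. The paralogs psmc1a, at 36.5 ± 2.48, 32.6 ± 2.19 and 27.5 ± 2.31 FPKM, and psmc1b, at 48.5 ± 2.82, 43.7 ± 2.48 and 34.8 ± 2.78, summed to 85.0 ± 3.76, 76.3 ± 3.31 and 62.3 ± 3.62. For the sum all 3 intervals were apart.

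The non-ATPase genes of the regulatory particle were all below the control in both banana libraries. By the 1.3-fold rule 8 of 13 were lower with Fe'i, against 18.1% of genes at 20 FPKM or more. psmd1, a scaffold of the base, was at 46.1 ± 2.47, 37.9 ± 1.96 and 31.1 ± 2.04 FPKM, with no overlap between libraries (Fe'i over control -0.55, counting SE 0.06). psmd13, a lid subunit, was at 74.1 ± 4.78, 56.8 ± 3.80 and 50.5 ± 4.11, and psmd12, also of the lid, at 40.7 ± 1.96, 30.9 ± 1.58 and 28.8 ± 1.93. In both the banana intervals overlapped and the control stood above them. psmd14, the lid enzyme that removes ubiquitin chains, was at 101 ± 4.79, 84.5 ± 4.09 and 71.3 ± 4.72, and the lid subunit psmd3 at 79.8 ± 3.19, 63.5 ± 2.64 and 55.8 ± 3.11. All 3 libraries were apart for psmd14 and psmd3, in the order control, Cavendish, Fe'i.

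Some lid genes had another order. psmd6 was lowest with Cavendish, at 77.2 ± 3.65, 59.06 ± 2.97 and 63.1 ± 3.85 FPKM, and the banana intervals overlapped. psmd8 was nearly equal on control feed and Cavendish and lower with Fe'i, at 95.2 ± 5.61, 94.8 ± 5.40 and 72.9 ± 5.07. The paralogs psmd11a, at 32.2 ± 2.32, 25.1 ± 1.87 and 27.9 ± 2.36, and psmd11b, at 23.6 ± 1.72, 18.8 ± 1.41 and 19.6 ± 1.71, had their lowest values with Cavendish. The control interval lay above the Cavendish interval for both, and above the Fe'i interval for psmd11b but not psmd11a. Their sum was 55.7 ± 2.89, 43.9 ± 2.34 and 47.6 ± 2.92.

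Of the genes of the ubiquitin receptor Rpn10, psmd4b lay nearer to the control than psmd4a. psmd4a was at 37.5 ± 3.06, 31.5 ± 2.60 and 30.2 ± 3.03 FPKM and psmd4b at 38.9 ± 2.51, 35.2 ± 2.22 and 34.7 ± 2.75, and together they gave 76.4 ± 3.96, 66.8 ± 3.42 and 65.0 ± 4.10. All 3 intervals of psmd4b overlapped one another, and its Fe'i over control ratio of -0.16 was the closest to 0 in the regulatory particle. psmd7, the lid partner of psmd14, had ratios of -0.13 and -0.42 for Cavendish and Fe'i over control.

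psmd2, a scaffold of the base that receives substrates, was listed at 10.4 ± 0.867, 10.2 ± 0.792 and 7.49 ± 0.844 FPKM, the lowest level in the regulatory particle. That gene lies on the unplaced scaffold KN150158.1, and a second gene, written PSMD2 in capitals and so outside the name rule, lies on another unplaced scaffold, KN149818.1. PSMD2 was at 28.9 ± 1.54, 24.2 ± 1.31 and 22.1 ± 1.57. Together they gave 39.3 ± 1.77, 34.5 ± 1.53 and 29.6 ± 1.78, with no overlap. Fe'i over control came to -0.40 for the sum and -0.43 for psmd2 alone.

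The assembly factors were mixed. The core chaperones psmg1 to psmg3 guide α subunits into rings. psmg3 (ENSDARG00000098391, chromosome 3, 42918846 to 42920062) was the one member higher with Cavendish by the 1.3-fold rule, at 17.4 ± 2.65, 25.3 ± 3.05 and 20.9 ± 3.35 FPKM (Cavendish over control 0.51, counting SE 0.13). Its Cavendish interval lay above that of the control and overlapped that of the Fe'i library. The locus overlaps another annotated gene, BX908797.1, and how reads were divided between them is not known here. With TPM the Cavendish over control ratio was 0.26 and short of the rule. psmg1 was at 52.1 ± 4.11, 43.5 ± 3.48 and 41.8 ± 4.03 FPKM, and psmg2 at 40.8 ± 3.2, 44.1 ± 3.10 and 36.8 ± 3.53. For psmg1 the control stood above both banana libraries, while for psmg2 the Cavendish and Fe'i intervals were the one pair apart.

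Of the base chaperones, psmd10 (gankyrin) was at 18.0 ± 2.04, 18.8 ± 1.97 and 13.3 ± 1.98 FPKM, lower with Fe'i by the 1.3-fold rule against both others. psmd5 was at 13.5 ± 1.49, 11.5 ± 1.28 and 11.1 ± 1.54 and psmd9 at 11.0 ± 2.12, 10.6 ± 1.82 and 11.1 ± 2.39. Every pair of intervals overlapped for these 2 genes.

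The activators and the inhibitor did not pass the 1.3-fold rule on either banana feed. psme3, a nuclear activator of the core, was at 30.3 ± 2.48, 28.8 ± 2.27 and 25.2 ± 2.5 FPKM. psmf1, which encodes the inhibitor PI31, was at 39.1 ± 2.79, 32.6 ± 2.37 and 35.2 ± 3.09, and psme4b, encoding the large activator PA200, at 4.83 ± 0.405, 3.98 ± 0.346 and 4.09 ± 0.438. Their Fe'i over control ratios were -0.26, -0.15 and -0.20, and the Fe'i interval lay below the control for psme3 alone. The Cavendish interval lay below the control for psmf1 and psme4b but not for psme3. psme4a was at or under 0.0970 ± 0.0577 FPKM in the 3 libraries. psmc3ip was at 6.35 ± 1.49, 5.02 ± 1.24 and 5.06 ± 1.60, all overlapping.

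**Figure D3:**
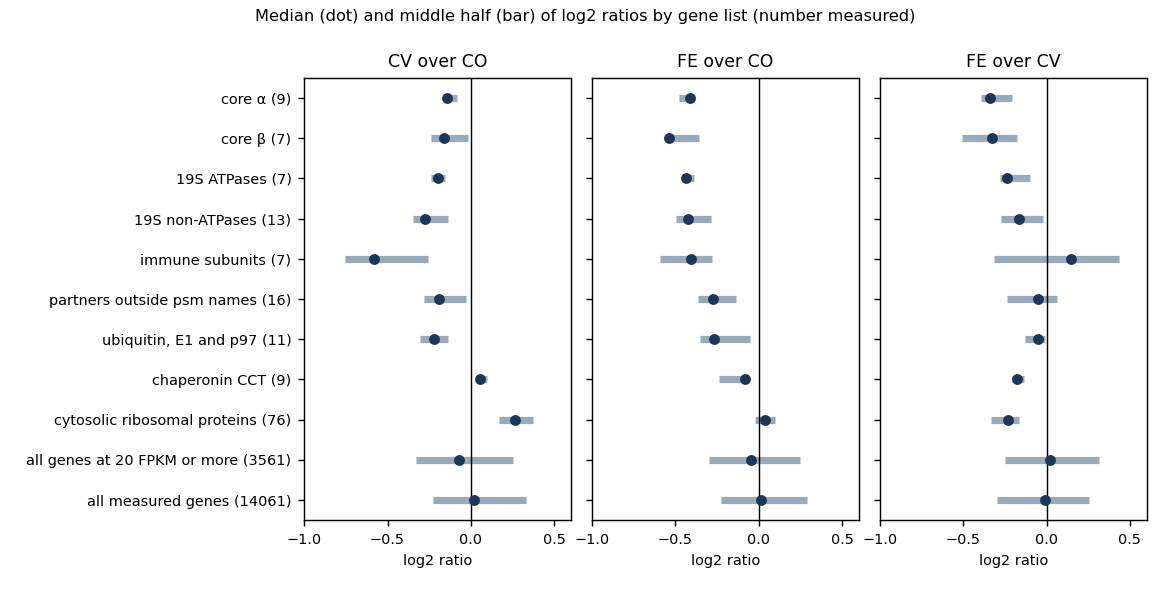
Median (dot) and interquartile range (bar) of log2 ratios in 3 comparisons, for the 4 subunit groups, immune subunits, partner genes, the chaperonin, cytosolic ribosomal proteins and all measured genes; the number measured is in brackets. For Fe'i over control the 4 subunit groups have medians from -0.54 to -0.41, while the chaperonin (-0.08) and the ribosomal proteins (0.04) lie near 0 under the scaling used here and at -0.23 and -0.10 with TPM; the panels share libraries in pairs.

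Genes that work with the proteasome but carry other names were less even. Of 16 measured partners 4 were lower with Fe'i than on control feed by the 1.3-fold rule and 0 higher, against 9.64% and 13.2% of all measured genes and 18.1% and 18% of those at 20 FPKM or more. Their median was -0.28 and their SD 0.26. pomp, which matures the core particle, had the lowest ratio, at 248 ± 10.5, 207 ± 8.96 and 151 ± 9.58 FPKM (Fe'i over control -0.71, counting SE 0.05). Its 3 intervals were apart. usp14, a deubiquitinase on the regulatory particle, was at 35.8 ± 1.94, 29.4 ± 1.64 and 24.8 ± 1.87, also apart in all pairs. The ubiquitin receptor adrm1 had a Fe'i over control ratio of -0.16 and the small subunit sem1 one of -0.28, neither past the rule. The remaining partners lower by the rule were ubqln4, a shuttle factor (-0.46), and zfand5b (-0.43), both also lower with Cavendish (-0.43 and -0.51).

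Among 11 genes of ubiquitin, its activating enzyme and the p97 unfoldase, 2 were lower with Fe'i by the 1.3-fold rule and 0 higher. That share is near the 18.1% of genes at 20 FPKM or more that were lower, so the count is not a result about these genes. vcp, which encodes p97, was at 179 ± 8.77, 124 ± 6.29 and 119 ± 7.50 FPKM, with both banana libraries below the control. Its cofactor nsfl1c was at 43.0 ± 2.74, 35.9 ± 2.31 and 30.8 ± 2.42, apart in all pairs. The polyubiquitin gene ubc was highest with Fe'i, at 393 ± 7.34, 341 ± 6.35 and 484 ± 9.44 FPKM and with no overlap. Its Fe'i over control ratio of 0.30 was short of 1.3-fold.

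Of the transcription factors that control proteasome genes in mammals, nfe2l1a, an NRF1 gene, was at 4.71 ± 0.564, 5.17 ± 0.548 and 4.28 ± 0.629 FPKM, all overlapping. nfe2l2a, an NRF2 gene, was higher in both banana libraries, at 22.7 ± 1.01, 29.7 ± 1.07 and 29.1 ± 1.33, but under 1.3-fold on the log2 scale used here. In this list of regulators 7 genes were measured, of which 1 was higher with Cavendish by the rule (nfe2l2b, 0.62) and 0 passed it with Fe'i. Of all measured genes 16.9% were higher with Cavendish, and 13.2% were higher and 9.64% lower with Fe'i. The counts are thus not a result about these regulators.

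Other housekeeping complexes were read in the same libraries. The 9 gene models of the chaperonin CCT, 2 of them named cct2, had a median of -0.08 for Fe'i over control and 0.06 for Cavendish over control. With Fe'i all 9 were below 0, so a shared direction was not particular to the proteasome genes, although the CCT step was smaller. None passed the 1.3-fold rule with Fe'i and 1 was higher with Cavendish. The 76 genes of the cytosolic ribosomal protein list, which by its name pattern also holds the binding protein gene rps19bp1, had medians of 0.04 and 0.27, with 0 past the rule with Fe'i and 19 higher with Cavendish. Of genes at 20 FPKM or more, 18% were higher and 18.1% lower with Fe'i. With Cavendish 16.9% of all measured genes and 18.5% of those at 20 FPKM or more were higher. The CCT share (11.1%) lay below these and the ribosomal share (25%) above. The interquartile ranges with Fe'i were -0.24 to -0.08 for CCT and -0.02 to 0.10 for ribosomal proteins, both above the -0.48 to -0.28 of the proteasome genes. The Cavendish median of CCT and both ribosomal medians changed sign with the scaling, while the Fe'i median of CCT stayed below 0. With TPM they were -0.23 (Fe'i) and -0.21 (Cavendish) for CCT and -0.10 and -0.0030 for ribosomal proteins. Relative to the median of all genes over the 4 scalings tried, CCT stayed between -0.13 and -0.096 with Fe'i and ribosomal proteins between -0.0033 and 0.028.

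All 7 measured immune subunits that were set aside were below the control on both banana feeds. Their medians were -0.41 with Fe'i and -0.58 with Cavendish, beside -0.39 and -0.17 for the members. By the 1.3-fold rule 4 were lower with each feed, against 9.64% (Fe'i) and 10.7% (Cavendish) of all measured genes. Of genes at 20 FPKM or more, 18.1% and 21.1% were lower. Of the 7, 4 (psmb8a, psmb9a, psmb12 and psmb13a) had their lowest value with Cavendish, and psmb10, psme1 and psme2 with Fe'i. psmb9a stood at 157 ± 5.96, 87.3 ± 4.14 and 118 ± 6.01 FPKM and psmb8a at 182 ± 9.75, 121 ± 6.88 and 170.3 ± 9.93. The Cavendish interval lay below both others for each, and psmb8a with Fe'i overlapped the control. The level of psmb8a relative to psmb5, whose place it takes in the immune core, was 3.52, 2.11 and 4.99 times. Other pairs were not highest with Fe'i. psmb9a relative to psmb6 was at 1.88, 1.22 and 1.73 times, psmb12 relative to psmb6 at 2.78, 1.69 and 1.97, psmb10 relative to psmb7 at 7.19, 7.83 and 5.20 and psmb13a relative to psmb7 at 8.62, 6.49 and 7.53. The loci of psmb8a, psmb9a, psmb12 and psmb13a overlap on chromosome 19, and how reads were divided among them is not known here.

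**Figure D4:**
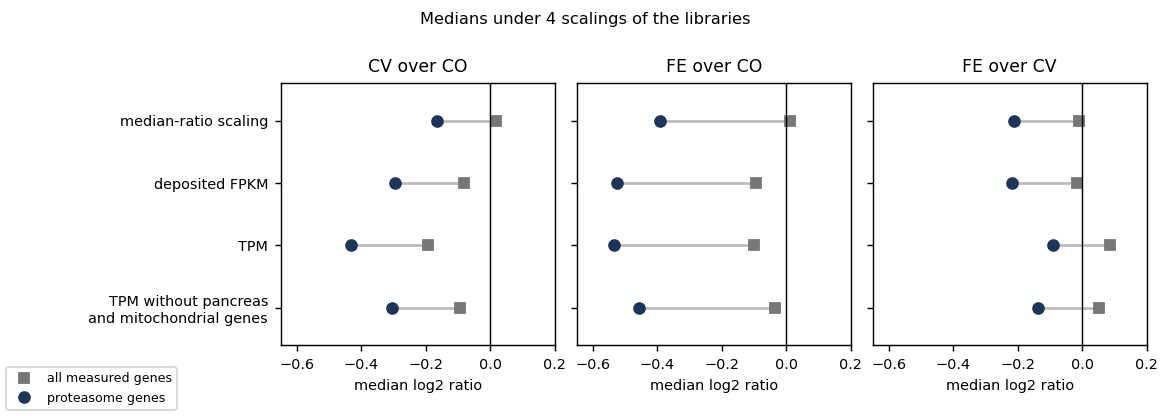
Median log2 ratio of the proteasome genes (circles) and of all measured genes (squares) under 4 scalings of the libraries, for 3 comparisons. The circle lies left of the square in each of the 12 pairs, and the members' median minus that of all genes is -0.43 to -0.40 for Fe'i over control and -0.24 to -0.18 for Cavendish over control. Genes at 20 FPKM or more, not drawn, have medians nearer to the members under the first scaling (-0.05 and -0.07).

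The size of the step depended on the scaling, and the gap to all genes much less. For Fe'i over control the median of the members was -0.39 with the scaling used here, -0.53 with deposited FPKM, -0.53 with TPM (FPKM as a share of its library sum) and -0.46 with TPM computed without pancreas and mitochondrial genes. The median of all genes was 0.01, -0.09, -0.10 and -0.04. Members lower by the 1.3-fold rule numbered 25, 37, 37 and 28 of 46, against 9.64%, 15.4%, 15.8% and 12.2% of all genes. For Cavendish over control the count was 3, 14, 31 and 15, against 10.7%, 16.8%, 25.7% and 17.8%, while the members' median minus that of all genes was -0.18, -0.21, -0.24 and -0.21. The members' share of lower calls was thus below that of all genes under the first scaling only. Genes at 20 FPKM or more were read under the first scaling only. There their median was -0.05 for Fe'i over control and -0.07 for Cavendish over control, nearer to the members' medians than that of all genes. Under these 4 scalings the lower share of all 1.3-fold calls was 38.9%, 56.1%, 70.7% and 57.3% for Cavendish over control. It was 42.3%, 60.5%, 61.4% and 51.0% for Fe'i over control, and 52.6%, 53.2%, 37.8% and 43.3% for Fe'i over Cavendish.

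Markers of other tissues and cells also differed between the libraries. With Fe'i 19 of 20 liver markers were past 2-fold higher than on control feed and 1 (cyp7a1) lower, against 4.93% and 1.79% of all measured genes. The liver markers had summed levels of 6960.1, 15061 and 29244 FPKM, and none was at 0. All 10 markers of lysosome-rich enterocytes were higher with Fe'i by the 1.3-fold rule (summed 13523, 9949 and 28694 FPKM, none at 0), and fabp6 of these also stands among the intestine markers. By that rule 13.2% of all measured genes and 18% of those at 20 FPKM or more were higher. Of 15 egg and germ cell markers 10 were measured, 8 of them through the Fe'i library alone, so no count is read from them. The 10 summed to 5.39, 3.30 and 60.9 FPKM, with ca15b among them at 0 with Cavendish. Of the markers not measured, zp2l2 was at 0 on control feed and dazl and gdf9 at 0 with Cavendish. With Cavendish 15 of 19 measured exocrine pancreas markers (summed 52345, 149756 and 49159 FPKM, none at 0) and 11 of 14 smooth muscle and fibroblast markers (summed 471, 1531 and 587, none at 0) were past 2-fold higher than on control feed. Of all measured genes 5.66% were. Of 9 measured erythrocyte markers 7 were higher by the 1.3-fold rule with each banana feed (summed 307, 581 and 818, none at 0). Among all measured genes 16.9% were higher by this rule with Cavendish and 13.2% with Fe'i. The 13 measured neutrophil and macrophage markers summed to 2770, 3199 and 2072 FPKM, none at 0. With Fe'i 4 were lower and 1 higher by this rule, against 9.64% and 13.2% of all measured genes. Their ratios ran from -0.85 (mfap4) to 1.24 (mpx) with Fe'i and from -4.16 (mfap4) to 2.94 (mmp13a) with Cavendish. No Cavendish count is read, since mmp9 and an mmp13a gene were measured through that library alone. The 13 intestine markers had medians of -0.22 with Fe'i and -0.27 with Cavendish (summed 36538, 24979 and 36157, none at 0). Relative to the median of all genes over the 4 scalings, they stayed between -0.26 and -0.23 with Fe'i and between -0.35 and -0.29 with Cavendish. The proteasome genes stood at -0.43 to -0.40 and at -0.24 to -0.18. Single intestine markers moved in both directions. By the 1.3-fold rule 4 were lower and 2 higher with Fe'i, against 18.1% and 18% of genes at 20 FPKM or more. With Cavendish 6 were lower and 1 higher, against 21.1% and 18.5%. The Fe'i ratios ran from -2.70 (apoa4a) to 1.70 (apoba). In the sums fabp6 alone held 10271, 7457 and 17303 FPKM. The part of these tissues and cells in the proteasome result was not tested. Without pancreas and mitochondrial genes in the TPM sum, the Fe'i over control median was -0.46. That setting changes only the divisor of each library and does not remove the part of any tissue from a member's ratio.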

How the data were processed

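TopHat2 2.1.0 and the build GRCz11, with FastQC 0.11.5, are named in the submitters' processing notes. The authors deposited FPKM from Cufflinks with 95% intervals, per the file headers and the labels. Strand use in counting is unknown here. Rows were summed by gene identifier (117 identifiers own several), 9 identifiers with a failed status were left out, and locus starts were raised by 1. Each library was divided by a median-ratio scaling factor (1.06 control, 0.969 Cavendish, 0.965 Fe'i). Effective fragments are the squared ratio of FPKM to its SD, with the interval read as 2 SD. They came out whole, within 0.05, for 48.0% to 49.0% of genes under 20, so no count test was run. Intervals cover counting and read assignment, not variation among fish. The pseudocount was 1. Calls were tested on simulated data.

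Members and lists were chosen with earlier results of these data known. Values in all libraries are given for members at the extremes of their group, paralogs, assembly factors, activators and the inhibitor, and for partners with the greatest ratios; adrm1, sem1, psma8, psmb1, psmb4, psmc5, psmd3, psmd14, PSMD2, regulators and immune genes were added after their values were seen. The ribosomal name pattern dropped names that end in l and 1 digit, such as rpl3. Computation used Python 3.11.15, numpy 2.4.6, pandas 2.3.3 and matplotlib 3.10.9.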

Additional observations from a re-analysis of the deposited data

How the results depend on the processing

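Each of 24 summary values was recomputed under 8 other settings and 3 more chosen after seeing the data; 234 values stayed close to those reported, 30 moved, and no median changed sign. Deposited FPKM moved the medians for all members, core and regulatory particle to -0.30, -0.28 and -0.38 (Cavendish over control) and to -0.53, -0.59 and -0.55 (Fe'i over control), with 14 members lower by 1.3-fold on Cavendish. TPM gave -0.43, -0.41 and -0.51 for Cavendish over control, with 31 lower and 0 higher, -0.53, -0.59 and -0.56 for Fe'i over control, and -0.089, -0.21 and -0.052 for Fe'i over Cavendish, with 3 lower. TPM without pancreas and mitochondrial genes gave -0.30, -0.29 and -0.39 for Cavendish over control with 15 lower, and -0.14, -0.26 and -0.10 for Fe'i over Cavendish with 5 lower. A pseudocount of 5 left 1 member lower on Cavendish and 5 on Fe'i against Cavendish. Without the 14 members whose locus overlaps another gene, 0 were higher on Cavendish, since psmg3 is among them. The Fe'i over control count ran from 18 to 37, and the core minus regulatory difference from -0.05 to -0.02 there, from 0.09 to 0.11 for Cavendish over control and from -0.19 to -0.13 for Fe'i over Cavendish. Of the values for single members 1211 stayed close, 135 moved, 81 passed the 1.3-fold rule newly and 19 no longer did. No paired analysis was possible because each diet has 1 library. Among measured members psmc3ip, psmc4, psmd9, psmg3 and psmb7 rested on the fewest effective fragments.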
